A study of Bos taurus with 16 samples.

Results

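Transcript levels of 16-cell bovine embryos were compared with those of early morulae, the stage that follows in the series. The comparison used 4 of the 16 samples, 2 embryos at each of the 2 stages, chosen by the stage in their labels. Every locus with reads was taken: 13960 of the 27393 loci in the table had reads in at least 1 of the 4 embryos, and 7910 had reads in all 4. Each sample was a single Bos taurus embryo that had developed in vivo, with no treatment or genetic modification named, and its RNA was amplified in 2 rounds before sequencing on the SOLiD platform. The other 6 stages, also with 2 samples each, were mature oocytes (MII), 2-cell, 4-cell and 8-cell embryos, compact morulae and blastocysts. Breed, donor cow and embryo sex are not given in the sources used here. The early morula label carries no cell number, and the whole embryo was sampled, so fewer cells of a type and less RNA per cell cannot be told apart.

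Between these stages the bovine embryo has already activated its own genome, and its blastomeres divide without growth of the whole. In the morula the cells flatten against each other and build junctions, the outer cells gain an apical face, and the Hippo pathway, which keeps the cofactor YAP1 out of the nucleus of inner cells, ties this position to fate. Outer cells go on to form trophectoderm, the first epithelium and the source of the placenta, whereas inner cells form the pluripotent epiblast and the hypoblast. Bovine trophectoderm also secretes interferon tau, the signal by which a ruminant conceptus is recognised by its mother.

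The 16-cell embryos had 1294285 and 607672 reads and the early morulae 1223707 and 1805933, of a range of 607672 to 3379426 over all samples. Levels are given as CPM, that is, reads scaled to a common total per embryo. A count of 3 reads, taken as the detection floor, was 2.32 and 4.94 CPM in the 16-cell embryos and 2.45 and 1.66 CPM in the early morulae, and it covers counting error only. Differences are given in log2 of the deposited value plus 1, early morula minus 16-cell, because the authors had divided the counts by a size factor for each embryo. The median difference of all loci tested was 0.00 on that scale, 0.12 with TMM factors and 0.42 when the reads were divided by totals, so CPM place most loci higher in early morulae. The Pearson correlation over 9670 loci was 0.864 between the 16-cell embryos, 0.912 between the early morulae and 0.809 to 0.848 across the stages. Loci are not independent replicates, and the correlations also move with depth.

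The labels were compared with markers. POU5F1, the core pluripotency factor, was at 2498 to 3596 CPM in the 4 embryos, and the oocyte growth factor BMP15 was at 0 in all 4. H1FOO, the linker histone of the oocyte, was at 3.86 and 3.29 CPM in 16-cell embryos and 13.9 and 16.1 CPM in early morulae. The cumulus cell genes PTX3, FSHR and AMH, the haemoglobin genes HBA and HBB, and the sperm genes PRM1 and AKAP4 were listed at 0 in all 4 embryos. Of the 15 cumulus and granulosa markers, 9 were at 0 in all 4, and the sum over the list was 776 and 731 CPM in the 16-cell embryos against 749 and 587 CPM in early morulae. Most of that sum was STAR, the cholesterol carrier of steroid-making cells, at 575 to 739 CPM. Of these markers 4 were tested and none passed, and CYP19A1, the aromatase, and LHCGR, the luteinising hormone receptor gene, were lower in both early morulae than in both 16-cell embryos. Of 12 blood cell markers 9 were at 0 in all 4 embryos, and the list summed to 17.0 and 11.5 CPM against 10.6 and 12.2 CPM. The sperm list had 8 of 12 markers at 0 in all 4 and sums of 4.64 and 9.87 CPM against 13.9 and 2.77 CPM, and the oviduct and uterine epithelium list 5 of 10 and at most 6.58 CPM in any embryo. Of the sex chromosome genes, the Y-linked EIF2S3Y, ZRSR2Y and UTY had no reads in any of the 4 embryos, whereas the Y-linked USP9Y was at 2.32 and 4.94 CPM against 2.45 and 5.54 CPM. XIST, the RNA that silences an X chromosome, was at 53.1 to 228 CPM.

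Few loci separated the stages beyond the spread between single embryos. Of 9670 loci tested with limma over all 8 stages, 2 rose (0.0207%) and 8 fell (0.0827%) from the 16-cell embryo to the early morula at an adjusted p under 0.05, together 0.103%. Positive differences were seen at 48.5% of the loci and negative ones at 47.5%. At an unadjusted p under 0.05, 460 loci were higher (4.76%) and 600 lower (6.2%). Both early morulae lay above both 16-cell embryos at 2212 loci (22.9%) and below both at 2019 (20.9%). The median absolute log2 difference between embryos was 0.792 within the 16-cell stage, 0.549 within the early morula stage and 0.822 to 0.868 across the stages. Across the stages the embryos therefore differed little more than the 16-cell embryos did from each other.

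**Figure D1:**
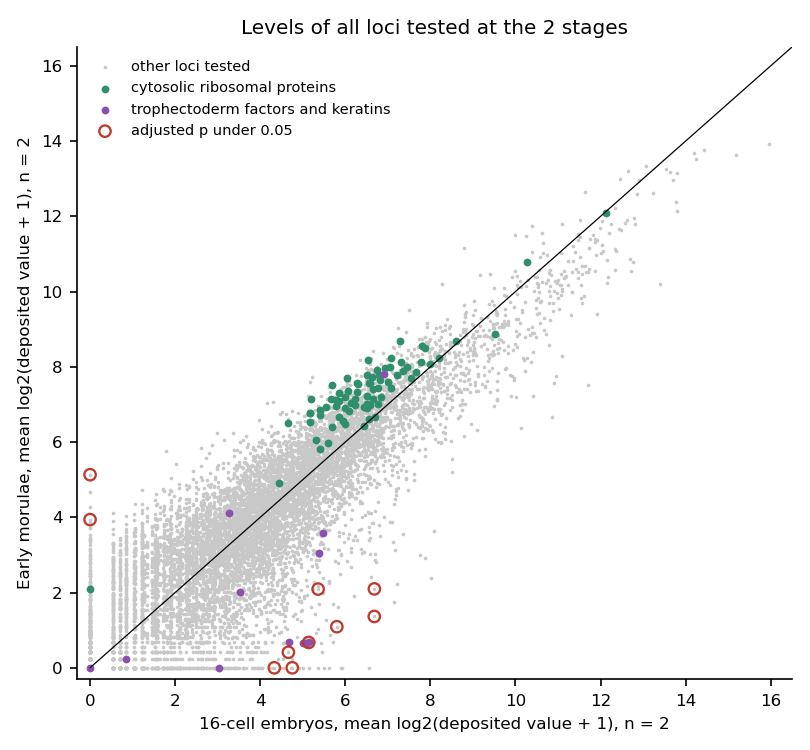
Each point is 1 of the 9670 loci tested, with the mean log2(deposited value + 1) of the 2 16-cell embryos on the horizontal axis and that of the 2 early morulae on the vertical axis; the line marks equal levels. Most cytosolic ribosomal protein genes lie above the line, 9 of the 12 trophectoderm genes lie below it, and the 10 loci with an adjusted p under 0.05 are circled.

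The locus with the smallest p was SMAD9, which encodes a transducer of BMP signals. SMAD9 was at 29.4 and 16.5 CPM in 16-cell replicates 1 and 2 and at 0 in both early morulae, and none of the other 14 samples of the series had a read on it. Its mean in 16-cell embryos was thus at least 9.34-fold above the floor of an early morula (adjusted p = 0.00711, limma). LOC100851269, which has no name in the gene table, had the same pattern with 17.8 and 14.8 CPM against 0 and 0, at least 6.64-fold lower in early morulae (adjusted p = 0.0205, limma). Among the other 12 samples only 2-cell replicate 1 had reads on it, at 2.00 CPM.

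IFNT, the interferon tau gene, was at 27.0 and 31.3 CPM in 16-cell embryos and at 1.63 and 0 CPM in early morulae. The 54 reads against 2 give a ratio of 43.0, with a 95% exact counting interval of 11.3 to 364, and limma an adjusted p of 0.0205. Interferon tau genes form a family of near-identical copies, so reads may have been assigned to one copy or another. The copy named IFNT2 was at 17.0 and 70.8 CPM against 8.99 and 8.86 CPM, again without overlap, but did not pass (adjusted p = 0.33, limma). In the 2 blastocysts neither copy was above 4.40 CPM.

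MYO5B, a myosin that moves recycling endosomes to the apical face of epithelia, fell from 20.1 and 57.6 CPM to 4.09 and 3.88 CPM. Its difference was -3.27 (SE 0.59, adjusted p = 0.046, limma), and its level was 8.66 and 5.77 CPM in the 8-cell embryos and 123 and 138 CPM in the blastocysts. The membrane protein gene TMEM220 fell from 35.5 and 60.9 CPM to 0.817 and 2.21 CPM, by 4.71 (SE 0.81, adjusted p = 0.039, limma). LYSMD4 had 37 reads in 16-cell embryos and 1 in early morulae, a ratio of 58.9 with a counting interval of 9.94 to 2390 (adjusted p = 0.0443, limma). For all 3 genes each 16-cell embryo lay above each early morula.

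The loci LOC100850450 and CUFF.19067.1, the latter assembled by the authors without a gene name, were abundant in oocytes, at 688 and 792 CPM and at 816 and 372 CPM. LOC100850450 was at 65.7 and 114 CPM in 16-cell embryos and at 0.817 and 3.88 CPM in early morulae, and it fell by 5.32 (SE 0.70, adjusted p = 0.00711, limma). CUFF.19067.1 fell from 96.6 and 77.3 CPM to 9.81 and 1.11 CPM, by 4.59 (SE 0.76, adjusted p = 0.0276, limma). Both loci were higher in both compact morulae and both blastocysts than in either early morula, which was the lowest of the 8 stages for them.

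DUOXA2, the maturation factor of a hydrogen peroxide-producing oxidase, was at 0 in both 16-cell embryos and at 31.1 and 55.9 CPM in early morulae, at least 8.81-fold higher (adjusted p = 0.0205, limma). The gene was at 4.95 and 26.0 CPM in 8-cell embryos and 100.5 and 40.7 CPM in compact morulae, and at 1.96 and 1.47 CPM in blastocysts, so the 16-cell embryos stood below both neighbouring stages. TPM2, a tropomyosin of actin filaments, was at 0 and 0 CPM against 13.9 and 22.1 CPM, at least 3.65-fold higher (adjusted p = 0.0276, limma). Outside the early morulae TPM2 did not exceed 1.47 CPM in any sample. DUOXA2 and TPM2 were the 2 loci that rose.

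**Figure D2:**
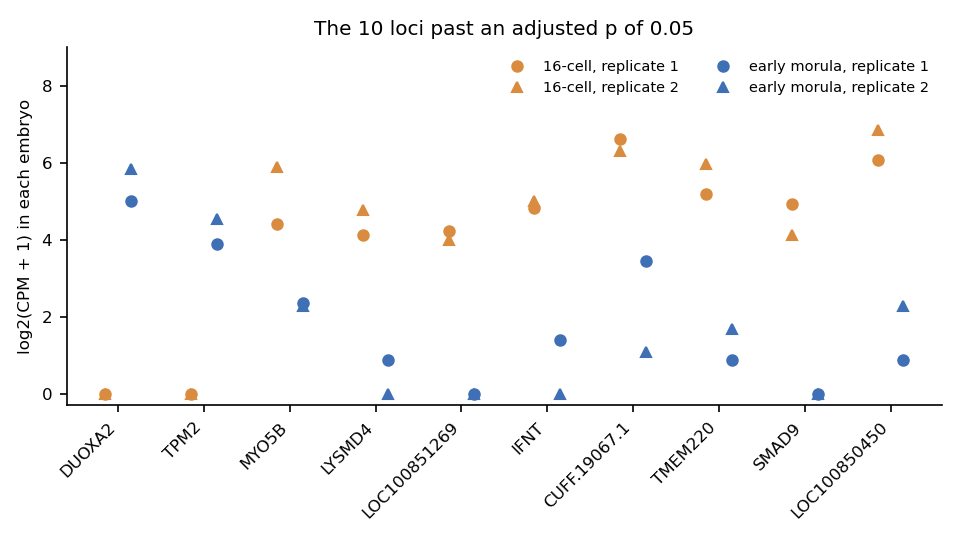
The vertical axis is log2(CPM + 1) and each point is 1 embryo for the 10 loci with an adjusted p under 0.05, ordered by the size of the difference. The 2 loci that rose stand at 0 in both 16-cell embryos, and at each of the 8 that fell both early morulae lie below both 16-cell embryos.

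SMAD9, LOC100851269, IFNT and TPM2 had few or no reads outside 1 stage, and the filter for low counts kept them only through that stage. Their p-values are therefore not independent support for a difference. The 10 calls depended on the test. edgeR's quasi-likelihood test on the recovered reads called 0 of the 9670 loci (925 at an unadjusted p under 0.05), and DESeq2 called 114, 6 of the 10 among them. Leaving out 1 of the 4 embryos left 5 calls without 16-cell replicate 1, 2 without 16-cell replicate 2, 1 without early morula replicate 1 and 3 without early morula replicate 2, with at most 1 of the 10 among them.

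Further genes with the smallest p are given as values only, since none passed. ACSL3, a long-chain acyl-CoA synthetase, was at 2340 and 3416 CPM in 16-cell embryos and 286 and 177 CPM in early morulae, a difference of -4.17 (SE 0.87, adjusted p = 0.0827, limma). ASRGL1, an asparaginase, was at 1031 and 2783 CPM against 157 and 449 CPM, and at 6011 and 5260 CPM in the blastocysts. ANGPTL1, a secreted angiopoietin-like protein, was at 151 and 93.8 CPM against 2.45 and 3.32 CPM, and HDAC4, a deacetylase that binds MEF2 factors, at 37.1 and 60.9 CPM against 8.99 and 0 CPM. The HDAC4 values are those of 1 of 3 loci of that name, the one with most reads. The stages did not overlap at any of these 4 genes, nor at SGTB, COQ10B, TMOD1 and CNN3, which were 3.40- to 8.42-fold lower in early morulae in mean CPM.

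In the other direction PNLDC1, an exonuclease that trims piRNAs in germ cells, was at 10.8 and 23.0 CPM in 16-cell embryos and 145 and 181 CPM in early morulae, a difference of 2.77 (SE 0.67, adjusted p = 0.121, limma). CUL4B, a scaffold of ubiquitin ligases, was at 44.8 and 19.7 CPM against 192 and 287 CPM, and returned values of 35.9 and 46.4 CPM in compact morulae. PITRM1, a mitochondrial peptidase, was at 0.773 and 0 CPM against 17.2 and 16.6 CPM (1 read against 51). The spliceosomal gene SNRPA1 was at 12.4 and 8.23 CPM against 68.6 and 73.1 CPM and the glypican gene GPC4 at 6.95 and 4.94 CPM against 23.7 and 91.4 CPM. KIAA1191, PHOSPHO1, LUZP2 and MEP1B were likewise higher in both early morulae than in both 16-cell embryos.

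Reads in both embryos of 1 stage, at least 3 in each, and none in the other were found at 164 loci for the early morula (1.17% of 13960) and 75 for the 16-cell embryo (0.537%). Such counts move with depth, and its part in the difference between them was not tested. Of these loci, 153 and 63 had reads in an 8-cell embryo or compact morula, so most were not limited to 1 stage. NID1, a basement membrane linker, was at 0 and 0 CPM in 16-cell embryos and 6.54 and 127 CPM in early morulae, with 8 reads in replicate 1 and 230 in replicate 2. ICA1L was at 71.9 and 87.2 CPM in 16-cell embryos and at 0 in early morulae, at least 32.4-fold lower. The unnamed loci CUFF.68050.1 with 10.04 and 239 CPM and CUFF.33311.1 with 85.0 and 29.6 CPM had the same direction, and the 16-cell embryos were far apart in both.

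By reads, the same 5 loci led in both stages. ODC1, the rate-limiting enzyme of polyamine synthesis, took 49447 and 59043 CPM in 16-cell embryos and 23404 and 15396 CPM in early morulae (difference -2.04, SE 0.96, adjusted p = 0.456, limma). The tubulin gene TUBA1C was at 28073 and 35073 CPM against 15573 and 15296 CPM, also without overlap. The nuclear transport GTPase gene RAN, at 18625 and 18729 CPM against 22666 and 12578 CPM, overlapped, as did LOC100849231, whereas METTL23 was at 16161 and 16672 CPM against 16144 and 12989 CPM. The 10 loci with most reads held 19.9% and 20.05% of the reads of the 16-cell embryos and 17.0% and 11.99% of those of the early morulae.

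Most trophectoderm genes tested had negative differences, 9 of 12. Of the 12 tested, from a list of 20 factors and keratins, 1 fell (IFNT, against 0.0827% of all loci) and none rose (against 0.0207%). At an unadjusted p under 0.05, 6 were lower (against 6.2% of all loci) and 0 higher, and 7 were lower without overlap (against 20.9% of all loci). The summed level of the list overlapped between the stages, at 196 and 639 CPM in 16-cell embryos and 315 and 339 CPM in early morulae. The cumulus and granulosa markers tested, 4 in number, also had negative differences with a median of -1.92, and their part in the result was not tested. The median difference was -2.12, against 0.00 over all loci, and -2.07 relative to all loci with either other scaling. It was -1.05 without 16-cell replicate 2 and -3.16 to -2.02 without each of the others. The count lower at an unadjusted p under 0.05 was 3 without 16-cell replicate 2 or without early morula replicate 2, 5 without early morula replicate 1 and 7 without 16-cell replicate 1. GATA3, a factor that drives trophectoderm fate, was at 19.3 and 41.1 CPM in 16-cell embryos and 0.817 and 0.554 CPM in early morulae (difference -4.44, SE 1.00, adjusted p = 0.109, limma). GATA2 was at 13.1 and 52.7 CPM against 0.817 and 0.554 CPM. The 2 GATA genes were thus below the floor in both early morulae and cannot be told from absent ones there.

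The keratins that mark the first epithelium differed between the 16-cell embryos themselves. KRT8 was at 3.86 CPM in replicate 1 and 102 CPM in replicate 2, against 1.63 and 0 CPM in early morulae, and KRT18 at 11.6 and 114 CPM against 11.4 and 15.5 CPM. In blastocysts, where the trophectoderm has formed, KRT8 was at 525 and 503 CPM. PTGS2, the inducible prostaglandin synthase, had reads in 16-cell replicate 2 only, at 67.5 CPM. TFAP2C, an activator of trophoblast genes, went the other way with 92.7 and 112 CPM against 266 and 281 CPM (difference 0.89, SE 0.59, adjusted p = 0.624, limma), and CDX2 was at 0 in all 4 embryos.

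Pluripotency factors showed no common direction: of 18 tested, 10 were higher and 8 lower, and their median difference was 0.13. The median was -0.21 without 16-cell replicate 2, with 6 higher and 11 lower, and -0.06 without early morula replicate 2, and 0.08 and 0.13 without the others. NANOG, a factor of the epiblast, was at 3.09 and 0 CPM in 16-cell embryos and 22.1 and 43.2 CPM in early morulae (difference 3.50, SE 1.01, adjusted p = 0.203, limma). POU5F1 was at 3596 and 3462 CPM against 2498 and 2616 CPM, and SALL4, which acts with it, at 4932 and 4818 CPM against 4833 and 3096 CPM. SOX2 reached at most 4.98 CPM in any of the 4 embryos. NANOG alone of the 18 had an unadjusted p under 0.05, and none had one without 16-cell replicate 2.

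Among hypoblast factors and matrix genes, 13 were tested, and 4 of them were higher at an unadjusted p under 0.05 (against 4.76% of all loci) and none lower. The counts were 1 higher and 1 lower without early morula replicate 2, 2 and 1 without 16-cell replicate 1, and 3 and 0 without either of the others. The median was 0.27, and 0.33 to 0.70 with 1 embryo left out. These 4 were NID1, the platelet-derived growth factor receptor gene PDGFRA, at 13.1 and 29.6 CPM against 53.9 and 100.2 CPM, and the fibroblast growth factor receptor genes FGFR2 and FGFR4. FGFR2 was at 0.773 and 1.65 CPM against 8.99 and 29.3 CPM (adjusted p = 0.31, limma), and FGFR4 at 2.32 and 1.65 CPM against 9.81 and 24.4 CPM. SPARC, a matrix protein, was at 157 and 337 CPM against 562 and 614 CPM, and NID2, with most reads in the list, overlapped. GATA6, the factor that opposes NANOG, was at 134 and 400 CPM against 301 and 476 CPM and overlapped too. The list had 8 positive and 5 negative differences, down to -2.44. On the authors' scale 5 members were higher and 3 lower without overlap (38.5% and 23.1%, against 22.9% and 20.9% of all loci).

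**Figure D3:**
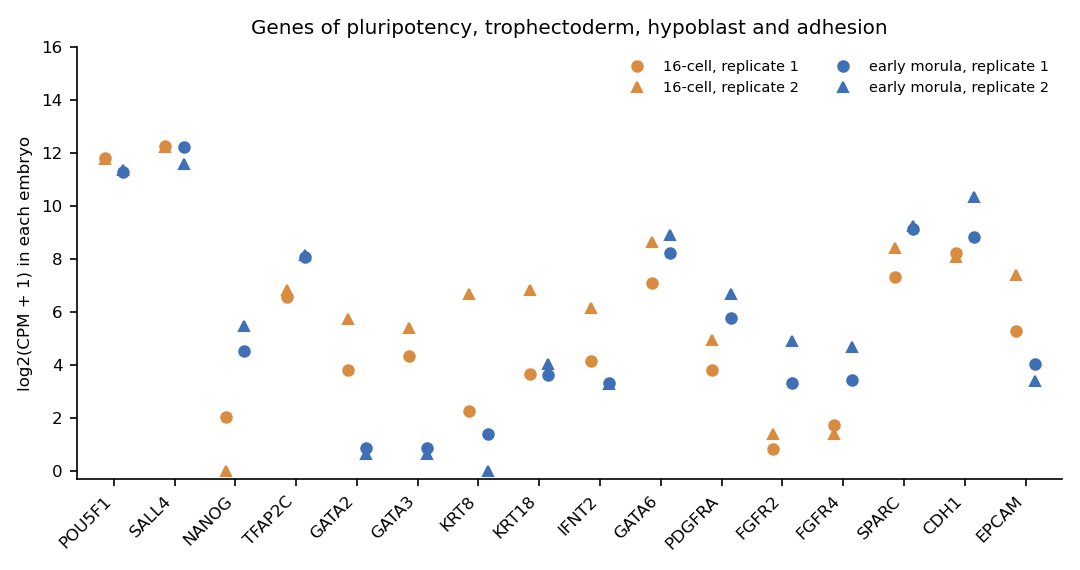
The vertical axis is log2(CPM + 1) and each point is 1 embryo for genes of pluripotency, trophectoderm, hypoblast and adhesion. GATA2 and GATA3 are near 0 in both early morulae, NANOG, FGFR2 and FGFR4 are higher there than in both 16-cell embryos, and KRT8 and KRT18 differ between the 16-cell replicates.

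Genes of compaction and polarity had negative medians on the authors' scale, where all loci had 0.00, and members on both sides. Of 23 adhesion and junction genes tested, 4 were lower (against 6.2% of all loci) and 0 higher at an unadjusted p under 0.05, with a median of -0.69. Without 16-cell replicate 2 or without early morula replicate 1 only 1 was lower at that threshold, and 2 or 3 were without each of the others, with 1 higher without 16-cell replicate 1. The share lower without overlap was 26.1%, against 20.9% of all loci. The median was -0.16 with total reads, where all loci had 0.42, and the summed levels overlapped at 3903 and 5034 CPM against 2940 and 4749 CPM. EPCAM, an epithelial adhesion molecule, was at 37.9 and 169.5 CPM in 16-cell embryos and 15.5 and 9.41 CPM in early morulae (difference -3.12, SE 0.89, adjusted p = 0.192, limma). JUP, or plakoglobin, was at 178 and 372 CPM against 73.5 and 80.3 CPM, and the tight junction gene OCLN at 1531 and 2060 CPM against 709 and 1153 CPM. CDH1, whose product E-cadherin holds blastomeres together, was at 297 and 272 CPM against 449 and 1285 CPM, so the members did not share 1 direction. The median of the list was -0.11 without 16-cell replicate 2, -0.29 without early morula replicate 1 and -1.06 without 16-cell replicate 1. The connexin gene GJB5, with many reads, overlapped.

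Of 22 genes of apical polarity and cortex, 4 were lower (against 6.2% of all loci) and 0 higher at an unadjusted p under 0.05, and 2 to 4 were lower with 1 embryo left out, with 1 higher without 16-cell replicate 1. Without overlap 3 were higher (13.6%, against 22.9% of all loci) and 7 lower (31.8%, against 20.9%) on the authors' scale. In CPM 7 were higher (31.8%, against 34.0% of all loci) and 4 lower (18.2%, against 11.3%) without overlap. Their median was -0.25, and 0.20 with total reads, where all loci had 0.42. It was -0.08 without early morula replicate 1, -0.27 without 16-cell replicate 2, -0.49 without 16-cell replicate 1 and -0.53 without early morula replicate 2. EZR, which encodes ezrin, a membrane to actin linker of microvilli, was at 375 and 569 CPM against 94.8 and 96.9 CPM (difference -2.78, SE 0.81, adjusted p = 0.203, limma). MYH9, a non-muscle myosin heavy chain, was at 4924 and 6964 CPM against 3155 and 1468 CPM, and the GTPase gene RHOA at 3002 and 4978 CPM against 2446 and 2062 CPM. ACTB, the cytoplasmic actin, was at 669 and 355 CPM against 1267 and 2270 CPM. EZR in compact morulae was at 536 CPM in replicate 1 and 50.0 CPM in replicate 2, a wider gap than between the 2 stages compared.

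Of 22 Hippo pathway genes, 4 were lower (against 6.2% of all loci) and 0 higher at an unadjusted p under 0.05. Without 16-cell replicate 2 these counts were 1 lower and 2 higher, and without early morula replicate 2 they were 1 and 0. Without 16-cell replicate 1 they were 5 and 0. The median was -0.47, and 0.01 with total reads, where all loci had 0.42. It was -0.08 without early morula replicate 1, -0.22 without 16-cell replicate 2, -0.64 without early morula replicate 2 and -0.74 without 16-cell replicate 1. VGLL4, a competitor of YAP1 for TEAD factors, was at 824 and 940 CPM in 16-cell embryos and 279 and 114 CPM in early morulae (difference -2.82, SE 1.15, adjusted p = 0.375, limma). The kinase gene LATS2 was at 10.8 and 28.0 CPM against 4.90 and 9.97 CPM, and its coactivator gene MOB1B at 5.41 and 18.1 CPM against 2.45 and 2.21 CPM. TAOK1, an upstream kinase, overlapped at 146 and 224 CPM against 254 and 95.8 CPM. Of 8 sodium pump and aquaporin genes, which later fill the blastocoel, ATP1B3 was at 57.9 and 110 CPM against 77.6 and 72.5 CPM. Only the sodium-proton exchanger gene SLC9A3 of these 8 had an unadjusted p under 0.05 (lower, against 6.2% of all loci), on 3.09 and 3.29 CPM against 0 and 0.

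Ribosomal protein genes had mostly positive differences. Of 76 genes of the cytosolic ribosome tested, 72 were higher and 4 lower, and 52 (68.4%) were higher in both early morulae than in both 16-cell embryos on the authors' scale, where all loci had 22.9%. Only 1 was lower in both (1.32%, against 20.9% of all loci). In CPM 65 were higher in both (85.5%, against 34.0% of all loci) and 0 lower. None passed the adjusted threshold (smallest adjusted p = 0.237, limma), whereas 15 were higher (against 4.76% of all loci) and 0 lower at an unadjusted p under 0.05. That count was 2 without 16-cell replicate 1, 12 without 16-cell replicate 2, 4 without early morula replicate 1 and 2 without early morula replicate 2. The median difference was 0.79, and 0.85 and 0.89 relative to all loci with TMM factors and total reads, and it ran from 0.63 to 1.05 with 1 embryo left out. Their summed level was 11432 and 13070 CPM in 16-cell embryos and 24031 and 23522 CPM in early morulae, a ratio of 1.94 in CPM and 1.36 on the authors' scale.

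Single genes showed the same: RPS7 was at 24.0 and 75.7 CPM against 212 and 230 CPM, and RPS18 at 20.9 and 44.4 CPM against 153 and 193 CPM. RPS20, with most reads of the list, overlapped at 4732 and 3069 CPM against 6928 and 4098 CPM, as did RPL28 on the authors' scale. The sum was also high in 8-cell embryos (15404 and 26346 CPM) and compact morulae (25204 and 18343 CPM), so the 16-cell embryos had the lowest sums of the 4 stages. With 2 embryos a stage, an exact two-sided permutation test of such a sum cannot give a p below 0.333.

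Other gene groups of protein production and mitochondria had positive medians on the authors' scale, but their sums were not all higher there. The ratio of the summed levels, early morula over 16-cell, was 1.36 for mitochondrial ribosomal proteins and 1.37 for the respiratory chain, 1.101 for the proteasome, 0.989 for ribosome biogenesis and 0.773 for translation initiation factors. Of 67 mitochondrial ribosomal protein genes, 32 were higher without overlap (47.8%, against 22.9% of all loci) and 4 lower (5.97%, against 20.9%), with a median of 0.66. MRPL4 was at 6.95 and 24.7 CPM against 65.4 and 88.6 CPM, and MRPL9 at 47.9 and 100.4 CPM against 210 and 336 CPM. Of 62 ribosome biogenesis genes, 30 were higher without overlap (48.4%, against 22.9% of all loci) and 3 lower (4.84%, against 20.9%), with a median of 0.58. At an unadjusted p under 0.05, 6 mitochondrial ribosomal protein genes (8.96%) and 4 ribosome biogenesis genes (6.45%) were higher, against 4.76% of all loci, and 0 lower. MRTO4, a factor of the large subunit, was at 3.09 and 1.65 CPM against 22.1 and 27.7 CPM, whereas POLR1B and NOLC1, with most reads in the list, overlapped.

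Of 68 nuclear genes of the respiratory chain and ATP synthase, 37 were higher without overlap (54.4%, against 22.9% of all loci) and 6 lower (8.82%, against 20.9%), with a median of 0.61. At an unadjusted p under 0.05 only 4 were higher (5.88%, against 4.76% of all loci) and 0 lower. The complex I genes NDUFS3, at 2.32 and 1.65 CPM against 19.6 and 23.8 CPM, and NDUFS5, at 7.73 and 9.87 CPM against 49.8 and 57.0 CPM, had the smallest p. ATP5A1, a catalytic-core subunit of the synthase, was at 131 and 331 CPM against 381 and 590 CPM. Of 41 proteasome genes 16 were higher without overlap (39%, against 22.9% of all loci) and 2 lower (4.88%, against 20.9%), with a median of 0.27, or 0.50 without 16-cell replicate 2. At an unadjusted p under 0.05, 3 of them were higher (7.32%, against 4.76% of all loci) and 0 lower. Of 51 translation initiation factors 19 were higher (37.3%, against 22.9%) and 8 lower (15.7%, against 20.9%), with a median of 0.17, or 0.33 without 16-cell replicate 2. Of these factors 5 were higher and 2 lower at an unadjusted p under 0.05, against 4.76% and 6.2% of all loci; the counts were 2 and 1 without 16-cell replicate 2 and 2 and 2 without early morula replicate 1, 5 and 2 without 16-cell replicate 1 and 4 and 1 without early morula replicate 2. EIF4A2, a helicase of initiation, was at 794 and 908 CPM against 232 and 261 CPM, lower while EIF3B, at 10.8 and 11.5 CPM against 66.2 and 68.1 CPM, was higher. No member of these 5 lists passed the adjusted threshold.

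**Figure D4:**
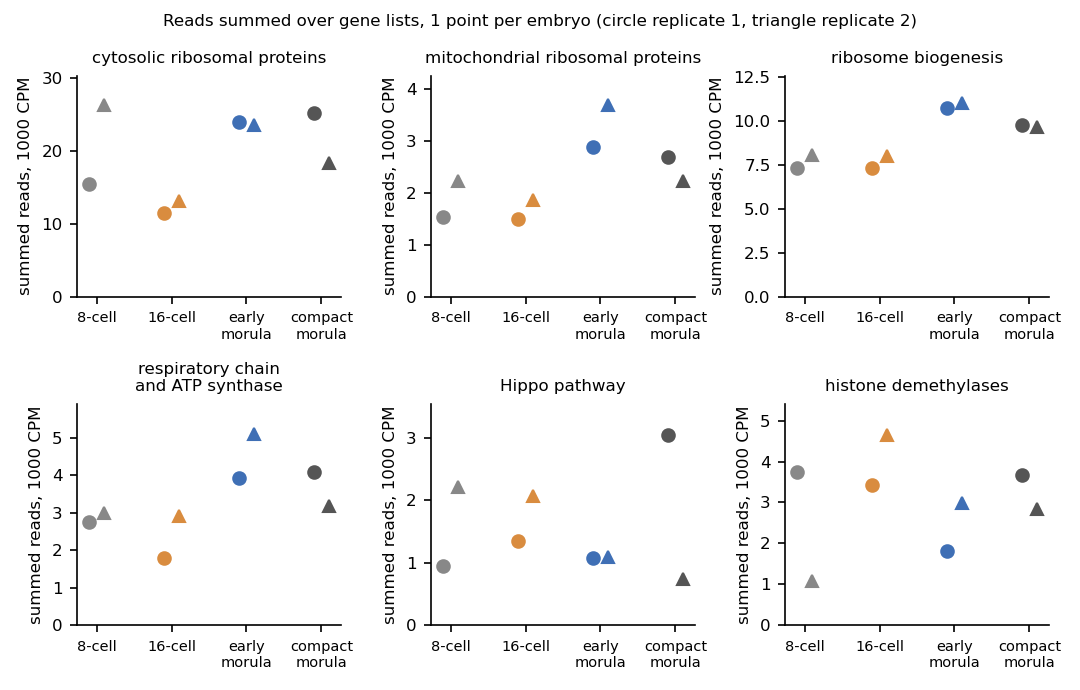
Each panel gives the reads summed over a gene list in units of 1000 CPM, with 1 point per embryo at the 8-cell, 16-cell, early morula and compact morula stages. The sums of the ribosomal and respiratory chain lists are higher in both early morulae than in both 16-cell embryos. Those of the Hippo pathway and the histone demethylases are lower in both. In the 16-cell embryos VGLL4 made up a large part of the Hippo sum and KDM4A most of the demethylase sum. These sums therefore do not show a fall of the whole lists.

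Chromatin genes were examined by class. Of 10 histone variant genes tested, 5 were higher without overlap (against 22.9% of all loci) and 0 lower (against 20.9% of all loci), with a median of 0.67. H3F3A, which encodes the replacement variant H3.3, was at 34.0 and 46.1 CPM in 16-cell embryos and 123 and 236 CPM in early morulae (difference 1.56, SE 0.57, adjusted p = 0.31, limma), and H3F3B, which encodes the same protein, at 134 and 298 CPM against 351 and 688 CPM. CENPA, the histone H3 of centromeres, was at 47.9 and 51.0 CPM against 153 and 95.8 CPM. H2AFZ, at 74.2 and 153 CPM against 154 and 300 CPM, and H2AFV, at 61.8 and 98.7 CPM against 136 and 111 CPM, did not overlap in CPM but did on the authors' scale. H3F3C had too few reads to be tested.

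All 6 DNA modifier genes tested had negative differences on the authors' scale (against 47.5% of all loci), with a median of -1.16, and 2 were lower at an unadjusted p under 0.05 (against 6.2%). Without 16-cell replicate 2, 5 were negative and 1 positive and none had such a p; 1 did without early morula replicate 1 and 3 did without 16-cell replicate 1. DNMT3A, a de novo DNA methyltransferase, was at 68.8 and 191 CPM in 16-cell embryos and 10.6 and 26.0 CPM in early morulae (difference -3.22, SE 1.03, adjusted p = 0.25, limma). The same gene was at 135 and 14.99 CPM in compact morulae. TET3, a 5-methylcytosine oxidase supplied by the oocyte, was at 1.55 and 11.5 CPM against 0 and 0. TET1 was matched by synonym to LOC513640, and of 2 loci of that name the one with most reads was taken. This locus, with most reads of the class, was at 3533 and 3092 CPM against 2950 and 3532 CPM and overlapped in CPM. Whether all its reads belong to TET1 was not tested.

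Histone demethylases had the smallest p at KDM1B, which removes H3K4 methylation, with 17.0 and 9.87 CPM in 16-cell embryos and 0 in both early morulae (adjusted p = 0.0762, limma). KDM4A was at 2267 and 2936 CPM against 671 and 1548 CPM and KDM2A at 717 and 1182 CPM against 530 and 626 CPM, whereas KDM5B, an H3K4 demethylase, was at 82.7 and 67.5 CPM against 175 and 162 CPM and overlapped on the authors' scale. Of 20 demethylase genes tested, 6 were lower and 2 higher without overlap on the authors' scale (30% and 10%, against 20.9% and 22.9% of all loci). In CPM 3 were lower and 6 higher (15% and 30%, against 11.3% and 34.0%). The median of -0.11 became 0.07 with total reads, under the 0.42 of all loci. It was 0.00 without 16-cell replicate 2 or early morula replicate 1, -0.22 without 16-cell replicate 1 and -0.30 without early morula replicate 2.

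Of 30 histone methyltransferases, 10 were lower and 7 higher without overlap on the authors' scale (33.3% and 23.3%, against 20.9% and 22.9% of all loci). In CPM 5 were lower and 11 higher (16.7% and 36.7%, against 11.3% and 34.0%). Their median was -0.12 (0.26 with total reads, and -0.20 to -0.01 with 1 embryo left out). SUV39H2, which writes H3K9 trimethylation, was at 109 and 191 CPM against 26.2 and 55.4 CPM (difference -2.41, SE 0.73, adjusted p = 0.229, limma), and SETDB1, another H3K9 enzyme, at 423 and 1004 CPM against 273 and 286 CPM. PRDM2, also an H3K9 methyltransferase, was at 632 and 1262 CPM against 683 and 437 CPM. These 3 were all the members with an unadjusted p under 0.05, and all were lower on the authors' scale, where 6.2% of all loci were. Without early morula replicate 2 only 1 was lower at that threshold, and without 16-cell replicate 1 there were 3 lower and 1 higher. Among 16 acetyltransferases 5 were higher and 2 lower without overlap on the authors' scale (31.25% and 12.5%, against 22.9% and 20.9% of all loci). None of the 16 had an unadjusted p under 0.05, with NCOA3 at 318 and 360 CPM against 151 and 95.8 CPM. Among 10 deacetylases HDAC4 and HDAC7 were lower with such a p (against 6.2% of all loci), while HDAC1, with most reads, was at 321 and 423 CPM against 247 and 308 CPM. With 1 embryo left out, the counts were 2 lower and 0 higher without 16-cell replicate 1, 1 and 0 without early morula replicate 2, and 1 and 1 without either of the others. The median of the deacetylases was 0.23, and it was -0.21 without 16-cell replicate 1, -0.30 without 16-cell replicate 2 and -0.17 without early morula replicate 2.

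**Figure D5:**
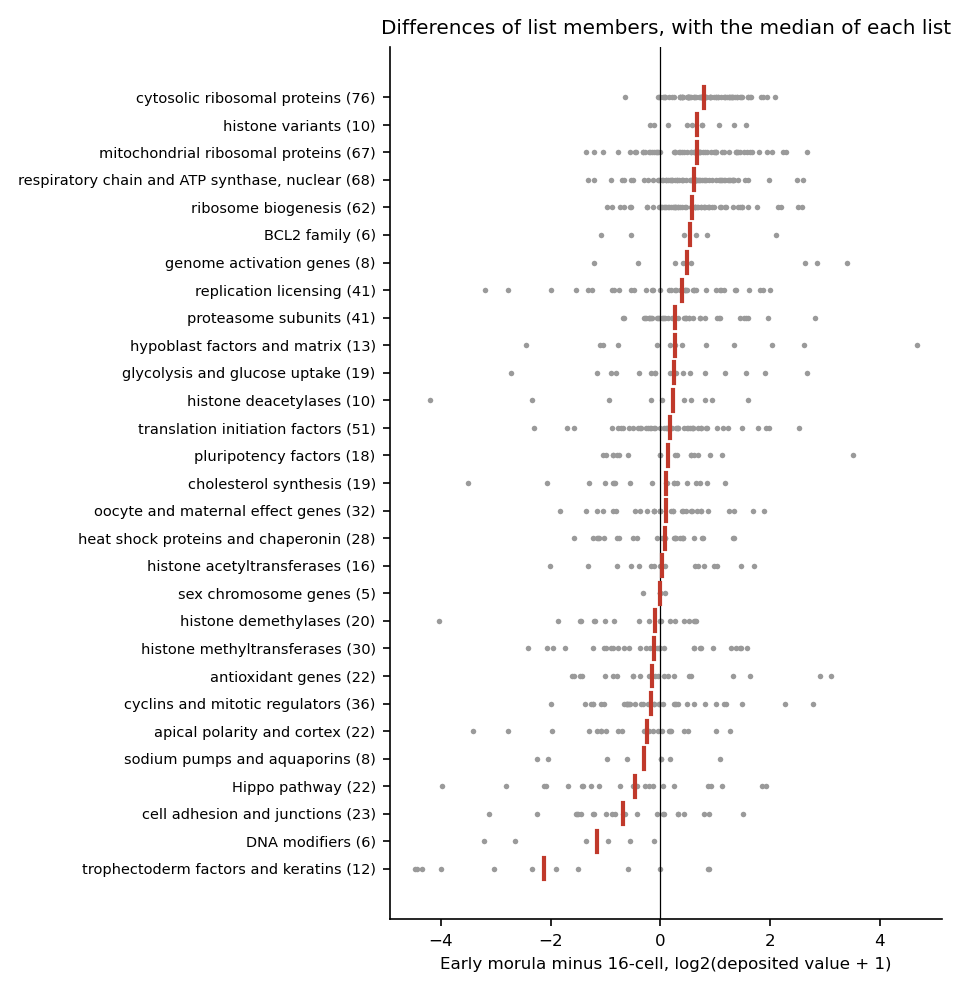
Each grey point is the early morula minus 16-cell difference, in log2(deposited value + 1), of 1 gene in the lists with at least 5 genes tested (number in brackets), and the red bar is the median of the list. The cytosolic ribosomal protein list has the highest median, 0.79, and the trophectoderm list the lowest, -2.12, against 0.00 for all loci.

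Genes that the embryo expresses at genome activation were higher in early morulae for 3 of 8 tested at an unadjusted p under 0.05 (against 4.76% of all loci), and lower for none, with a median of 0.48. Without 16-cell replicate 2 none was higher and 1 was lower at that threshold, with 4 positive and 4 negative differences. The median ran from 0.44 without that embryo to 1.13 without 16-cell replicate 1. The homeobox gene ARGFX was at 22.4 and 6.58 CPM in 16-cell embryos and 104 and 132 CPM in early morulae (difference 2.63, SE 0.84, adjusted p = 0.248, limma), and the homeobox gene DUXA at 4.64 and 4.94 CPM against 72.7 and 45.4 CPM. ZNF394 was at 10.8 and 0 CPM against 40.9 and 63.7 CPM. In the 8-cell embryos ARGFX was at 49.5 and 189 CPM, DUXA at 9.90 and 186 CPM and ZNF394 at 28.5 and 42.3 CPM. For all 3 genes both 16-cell embryos thus lay below both 8-cell embryos and both early morulae in CPM. KLF17 and EIF1AX, with most reads of the list, overlapped on the authors' scale.

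Genes of the oocyte and maternal effect gave 16 positive and 12 negative differences among 32 tested and a median of 0.09, which ran from 0.00 without either early morula to 0.24 without 16-cell replicate 2. DPPA3, a protector of maternal DNA methylation, was at 40.9 and 140 CPM against 38.4 and 91.9 CPM, and ACCSL, at 61.0 and 88.9 CPM against 168 and 129 CPM, did not overlap. The summed level was 174 and 367 CPM in 16-cell embryos and 364 and 388 CPM in early morulae. In 8-cell replicate 2 it was 5817 CPM, against 356 CPM in replicate 1.

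Embryos of the stages on either side, which share no sample with this comparison, gave the same sign for 6 called loci and the other sign for 2 when compact morulae were set against 8-cell embryos. SMAD9 and LOC100851269 had no reads in those embryos, and none of the 10 was called there. That comparison called 12 loci higher (0.124%) and 17 lower (0.176%), together 0.3%. The median difference of the cytosolic ribosomal protein genes was -0.16 there, that of the trophectoderm genes 0.36 and that of the respiratory chain genes 0.46. The 2 8-cell embryos correlated at 0.729, the lowest value within any of the 4 stages, and with 1 of them left out the calls ran from 7 to 287 lower and 9 to 210 higher.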

How the data were processed

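Single oocytes and embryos were sequenced, 2 samples at each of 8 stages. The deposited signal of each of 27393 loci is a read count that the authors had scaled by 1 size factor per sample, after trimming, mapping and counting (the submitters' processing notes name cutadapt, FastQC, TopHat, Cufflinks and HTSeq). Genome build and strand setting are not given in the sources used here. All non-zero values were whole multiples (tolerance 0.01) of 1 value per sample, so reads were recovered, 607672 to 3379426 per sample; counting intervals and floors cover counting error only.

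The filter for low counts was filterByExpr of edgeR, which left 9670 loci. log2(value + 1) was fitted with limma 3.58.1 (R 4.3.3; trend, empirical Bayes, 8 stage means, 8 residual degrees of freedom) and adjusted by the Benjamini-Hochberg method at 0.05. Since the values are scaled counts, edgeR 4.0.16 and DESeq2 1.42.0 served as alternatives, beside pseudocounts of 0.5 and 5, TMM factors and total reads, other filters, other sets of stages, the replicate number as a block and each replicate left out. Leaving out embryos for the medians of gene lists was added after seeing the data. The p-values measure the spread between single embryos, pooled over the 8 stages. Stages at 0 in both replicates add no spread. For loci such as SMAD9, LOC100851269 and TPM2 the p-value thus rests largely on absence in other stages. On simulated data with 9189 loci of this comparison, 200 of them changed, limma recovered 4% of 4-fold and 33% of 8-fold changes with 1 false call. The changed loci were drawn only from those of higher mean CPM at the compared stages. CPM, sums and figures were made in Python 3.11.15 with numpy 2.4.6, pandas 2.3.3, scipy 1.17.1 and matplotlib 3.10.9.

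The loci and the gene lists were chosen with earlier results of these data known. Of 33 lists, 986 members matched by name, 19 by synonym and 30 were not found. Names came from the table and, for LOC numbers, from a RefSeq gene table of assembly ARS-UCD2.0. Where several loci carried the name of a list member, the locus with the highest mean level over all samples stood for the gene. Named by rule were the loci past the threshold without overlap and with at least 20 reads in each sample of the higher stage, then symbols of smallest p up to 10 per direction, the 2 members with most reads of each list without a call, 8 chromatin genes, the 5 loci with most reads per stage and the 3 largest of the loci seen in 1 stage. Called loci under 20 reads and further list members, mostly those of smallest p, were named after their values were seen. Except for 1 gene, which is not reported here, the genes named by this rule are given. Sequences, gene lengths and coordinates were not used here.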

Additional observations from a re-analysis of the deposited data

How the results depend on the processing

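All 10 called loci kept their sign in every alternative in which they were tested. The counts of loci higher and lower in early morulae, 2 and 8 with limma, were 3 and 17 with a pseudocount of 5, 3 and 5 with total reads, 11 and 31 without a filter (18318 loci), 0 and 0 with edgeR, 11 and 103 with DESeq2, 7 and 84 with the 2 stages alone (6495 loci) and 0 and 0 with the 5 stages from the 8-cell stage on (929 at an unadjusted p under 0.05). With a pseudocount of 0.5, TMM factors or at least 10 reads, the counts were within 1.5 times. With 1 embryo left out they ran from 0 to 1 higher and 1 to 4 lower, the lone embryo being assumed to vary like the other stages. The cause of these shifts was not tested; the number of loci tested differed with the filters and stages.

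With the replicate block 1 locus was higher and 4 lower. The replicate numbers pair no animals, and the deviations of same-numbered 16-cell and early morula samples correlated at 0.03. For compact morulae against 8-cell embryos, 12 higher and 17 lower became 0 and 0 with edgeR (1009 at an unadjusted p under 0.05), 2 and 8 with total reads, 0 and 6 with the replicate block, and 0 to 210 and 2 to 287 with 1 embryo left out, the extremes coming without compact morula replicate 1 and without 8-cell replicate 1. Requiring 10 reads left 15 loci with reads in early morulae only and 14 in 16-cell embryos only.

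With 2 embryos a stage limma recovered 33% of simulated 8-fold changes at this depth. Those changes were placed only in loci of higher mean CPM, so recovery at low levels was not measured. A gene without a call is not shown to be equal. A gene under 3 reads in an embryo cannot be told from an absent one.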

Other observations

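Gene groups of the cell cycle, metabolism and stress were measured too, and no member passed the adjusted threshold. Among 36 cyclins and mitotic regulators the median difference was -0.17, and with 1 embryo left out it ran from -0.38 without early morula replicate 2 to 0.06 without 16-cell replicate 2. CKS1B was at 1405 and 1644 CPM in 16-cell embryos and 1299 and 1466 CPM in early morulae and CCNA2 at 227 and 341 CPM against 525 and 429 CPM. Of 41 genes of replication licensing, 14 were higher and 7 lower without overlap (34.1% and 17.1%, against 22.9% and 20.9% of all loci). RFC5, a subunit of the clamp loader, was at 748 and 1789 CPM against 241 and 136 CPM (difference -3.19, SE 0.77, adjusted p = 0.12, limma), and in compact morulae at 963 and 114 CPM, so that replicates of that stage differed as much as the stages did. GINS2, of the replicative helicase, was at 135 and 105 CPM against 12.3 and 46.0 CPM, whereas the helicase subunit gene MCM3 was at 6.95 and 3.29 CPM against 21.2 and 39.9 CPM.

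Among 22 antioxidant genes MT2A, a metallothionein, had no reads in 16-cell embryos and 9.81 and 8.86 CPM in early morulae (adjusted p = 0.102, limma), while the glutathione reductase gene GSR was at 31.7 and 72.4 CPM against 18.8 and 25.5 CPM. The glucose transporter gene SLC2A3 was at 103 and 308 CPM against 337 and 609 CPM and the glycolytic gene ENO1 at 11.6 and 41.1 CPM against 2.45 and 5.54 CPM. Of 19 cholesterol synthesis genes 7 were lower and 3 higher without overlap on the authors' scale (36.8% and 15.8%, against 20.9% and 22.9% of all loci). In CPM 4 were lower and 6 higher (21.1% and 31.6%, against 11.3% and 34.0%). The list had 10 positive and 9 negative differences and a median of 0.10, which ran from -0.53 to 0.11 with 1 embryo left out. HMGCS1 was at 25.5 and 18.1 CPM against 4.09 and 9.97 CPM. Of 28 heat shock and chaperonin genes, HSP90AB1 was at 118 and 357 CPM against 97.2 and 100.1 CPM and HSPA9 at 237 and 323 CPM against 554 and 677 CPM. BAD, a promoter of cell death in the BCL2 family, was at 6.18 and 3.29 CPM against 23.7 and 44.3 CPM, and MCL1, which opposes death, at 110 and 234 CPM against 260 and 373 CPM. In 16-cell replicate 2, which had the fewest reads of all samples, KRT8, KRT18 and PTGS2 stood far above replicate 1.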
